A study of Mus musculus with 2 samples.

Results

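The 8 genes described here encode the 3 TGF-beta ligands (Tgfb1, Tgfb2 and Tgfb3), the type I and type II receptors (Tgfbr1, Tgfbr2 and Acvrl1) and the co-receptors (Tgfbr3 and Eng). They were chosen by symbol, all 8 were found among the 27998 genes of the deposited files, and none was used to define the cell classes in which they were measured. Single-cell RNA sequencing was performed on limb tendons of mouse pups at P7, 7 days after birth. A mutant library was set beside a control library, each made from the fore- and hindlimb tendons of 2 pups pooled together. In the mutant pups, called Tgfbr2;ScxCre mutants, a floxed allele of Tgfbr2 stood over a null allele and was removed by ScxCre, a Cre driver active in cells that express the tendon transcription factor Scleraxis (Scx). Per the study's methods all mice, controls included, carried the tendon reporter ScxGFP and the Cre reporter Ai14 Rosa26-tdTomato (RosaT). ScxCre acts unevenly between tenocytes of the embryo, and cells of the tendon that never expressed Scx keep the floxed allele intact. The study states that targeting of tenocytes was complete only in early postnatal stages. Its receptor immunostaining showed a nearly complete loss of the protein in mutant tendons by birth. The control library carries the genotype wild type in its labels, but another of its labels reads Het, so its exact genotype was not settled here.

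TGF-beta ligands are made as latent dimers that are stored in the matrix and must be released before they act. The free ligand binds the type II receptor, which recruits and activates a type I receptor that phosphorylates the transcription factors Smad2 and Smad3, and the pathway is a well known inducer of Scx in tendon. The 3 ligands share Tgfbr2 as their type II receptor, so a cell without it is cut off from all of them.

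Tgfb1 was lower and Tgfb2 higher in mutant than in control Scx-low cells, while both were higher in mutant Scx-high cells. These 2 ligands are shown by the 250 bases before their start, since their upstream sequences also differ in make-up. The sequences are from RefSeq on build GRCm38.p6, on the strand of the gene, and capitals mark the motifs named after them.
Tgfb1 (chr7:25686752-25687001, plus strand): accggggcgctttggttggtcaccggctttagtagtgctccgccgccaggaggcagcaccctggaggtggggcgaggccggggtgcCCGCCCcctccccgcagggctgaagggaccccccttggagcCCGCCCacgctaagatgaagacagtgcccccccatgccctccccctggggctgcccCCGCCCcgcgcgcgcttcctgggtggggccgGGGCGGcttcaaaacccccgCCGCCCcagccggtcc
Tgfb2 (chr1:186705990-186706239, minus strand): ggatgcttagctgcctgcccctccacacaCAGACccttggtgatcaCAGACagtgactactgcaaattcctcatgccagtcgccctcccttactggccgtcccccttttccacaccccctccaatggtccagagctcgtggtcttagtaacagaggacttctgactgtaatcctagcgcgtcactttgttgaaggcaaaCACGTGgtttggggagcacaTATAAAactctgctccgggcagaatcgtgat
In the Tgfb1 sequence the capitals mark 5 GC boxes (GGGCGG on either strand, the letters of an Sp1 site), and 32.7% of 32851 promoter sequences of this length held at least 1. In the Tgfb2 sequence they mark a TATA box (TATAAA) whose first base lies 31 bases before the start, an E-box (CACGTG) 51 bases before it, and 2 copies of CAGAC, the letters of a Smad box. Of all promoter sequences 12.4% held the TATA box, 6.02% the E-box and 42.2% the letters CAGAC on either strand. GC content was 75.2% for Tgfb1 and 53.6% for Tgfb2. These matches are a description of the letters and were not tied to any measurement. Sequences were found for 5 of the 8 genes, the others being those of Tgfbr1, Tgfbr2 and Eng.

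Gene positions are given on GRCm38 from the GENCODE annotation. The ligand genes lie at chr7:25687002-25705077 (Tgfb1), chr1:186622792-186705989 (Tgfb2) and chr12:86056745-86079041 (Tgfb3). The signalling receptor genes lie at chr4:47353222-47414931 (Tgfbr1), chr9:116084293-116175360 (Tgfbr2) and chr15:101128522-101145336 (Acvrl1), and the co-receptor genes at chr5:107106570-107289629 (Tgfbr3) and chr2:32646595-32682669 (Eng).

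Counts are unique molecular identifiers (UMIs), each a molecule caught at its 3′ end. The control library held 2364 cells and 9451606 UMIs, and the mutant library 2592 cells and 8250248 UMIs, with 2 cell barcodes in common. Levels are the summed UMIs of a gene in a class per 1000000 UMIs of that class, written CPM, with exact Poisson 95% intervals in brackets. Ratios between libraries or classes carry exact conditional 95% intervals, and shares of cells exact binomial ones. None of these intervals goes beyond counting error. Each condition had a single library, so there was no replicate and no test, and library, batch and genotype cannot be told apart.

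Scx-high cells had at least 30 Scx UMIs per 10000 and numbered 894 in the control and 208 in the mutant library. Scx-low fibroblasts fell under that value and had at least 5 UMIs over Ly6a, Cd34, Dpt, Lum and Col3a1, and numbered 662 and 1784. Per the study's notes, transcripts of the ScxGFP reporter are counted as Scx, so the Scx value is not that of the endogenous gene alone, here and in the groups by Scx level. All 6 checking genes of tendon cells (Tnmd, Fmod, Mkx, Col11a1, Thbs4 and Kera) were higher in Scx-high cells than in all other cells of either library, by 2.26- to 4.23-fold in the control and 1.59- to 8.61-fold in the mutant. Because Scx itself separated these classes and Scx-high cells made up 37.8% of the control but 8.02% of the mutant library, a difference within cells and a difference in which cells passed the Scx value cannot be told apart. Scx-low cells also differed in make-up, since 291 of the 662 control but 346 of the 1784 mutant cells held a UMI of Pi16, a marker of adventitial fibroblasts. At least 5 UMIs per 10000 of the tendon gene Tnmd were held by 169 of the control and 622 of the mutant Scx-low cells. The genes that led the class by fold over the other cells were Ly6a, Pi16 and Mfap5 in the control and Apod, Cxcl14 and Ly6a in the mutant library. A difference in make-up and a difference within cells cannot be told apart in this class either. The study reads its mutant cluster rich in Ly6a as dedifferentiated tenocytes. It also proposes that mutant tendon cells that keep ScxGFP are newly recruited. Cell origin was not measured here, so neither class need hold the same kind of cell in both libraries. The 7 genes of the mural gate, Ndufa4l2 among them, summed to 249 CPM in control and 91.1 in mutant Scx-high cells and to 184 and 174 in Scx-low cells, and the 6 genes of the muscle gate to 24.1 and 46.1 and to 41.8 and 47.2. Their part in the ratios was not tested. Immune cells numbered 192 and 189 and endothelial cells 23 and 27, and all 7 checking genes of each type were detected in both libraries. The mural gate took in 299 control cells through Ndufa4l2 alone, of which 255 reached the Scx value, so mural cells are described from the 145 control and 84 mutant cells that passed without that gene, a choice made after the values were seen. Because the gate came before the Scx value, those 255 cells are not among the Scx-high cells. Putting them back gave ratios between the libraries of 3.38 for Tgfb1, 2.50 for Tgfb2 and 1.56 for Tgfbr2, and of 0.518 in place of 0.426 for Tgfbr3. Blood cells, taken as the 88 control and 79 mutant cells in which haemoglobin transcripts exceeded 50% of UMIs, held 1 and 2 UMIs of the 8 genes together.

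All 3 ligands differed between the libraries in both Scx-high and Scx-low cells, Tgfb1 in opposite directions. Tgfb2 was about as much higher in mutant Scx-high cells as in mutant Scx-low cells, Tgfb3 was higher in both by less, and Tgfb1 was higher in mutant Scx-high but lower in mutant Scx-low cells.

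Tgfb1, the ligand best known from platelets and immune cells, had 87 UMIs in control Scx-high cells (24.9 CPM, 19.97 to 30.7) and 81 in mutant Scx-high cells (84.8 CPM, 67.4 to 105), a ratio of 3.40 (2.48 to 4.66). At least 1 UMI was found in 8.28% of control and 23.6% of mutant Scx-high cells, and in 3.81% and 10.5% after each cell was thinned to 1500 UMIs. In Scx-low cells the mutant level was the lower one, with 78 UMIs in the control (31.9 CPM, 25.2 to 39.9) and 94 in the mutant (17.1 CPM, 13.8 to 20.9), a ratio of 0.535 (0.392 to 0.732). Scx-low cells with a Pi16 UMI gave 0.628 (0.327 to 1.18, from 28 and 18 UMIs) and those without 0.456 (0.315 to 0.665). Within the mutant library Tgfb1 was therefore 4.97-fold higher (3.64 to 6.76) in Scx-high than in Scx-low cells, while in the control library the 2 classes differed by less than counting error (ratio 0.781, 0.568 to 1.07).

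Within the mutant Scx-high cells Tgfb1 was higher in the groups with more Scx. Cells with at least 300 Scx UMIs per 10000 held 22.2 Tgfb1 CPM in the control and 144 in the mutant, a ratio of 6.50 (3.94 to 11.0), and 25 of the 61 mutant cells had at least 1 UMI. Cells with 100 to 300 held 21.9 and 74.4 CPM, a ratio of 3.40 (1.96 to 5.76). Cells with 30 to 100 held 51.5 and 26.8 CPM, from 18 and 8 UMIs, and the interval of their ratio ran from 0.196 to 1.26. The highest of these groups stood 5.37-fold (2.53 to 13.1) above the lowest in the mutant library and at 0.430 of it (0.226 to 0.838) in the control library.

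Immune cells make Tgfb1 themselves, so their markers were set beside it. The 7 immune genes of the gate summed to 8.60 CPM in control and 14.7 in mutant Scx-high cells, with 5 of the 7 detected in each. In Scx-low cells they summed to 12.3 and 7.99 CPM. The sums thus ran in the same direction as Tgfb1 in both classes. Cells with at least 5 of these UMIs had already been taken out of both classes by the gate, so low sums were set in part by the gating. Without the cells that held any immune UMI the Tgfb1 ratio was 3.20 in Scx-high and 0.551 in Scx-low cells, an alternative added after seeing the data. Leaving out these cells does not remove free RNA of immune cells from the rest. The part of immune RNA in the Tgfb1 ratios was not tested. In immune cells Tgfb1 stood at 206 (168 to 249) and 195 (153 to 245) CPM in the control and mutant libraries, without a difference beyond counting error.

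By class, the order of Tgfb1 in the control library was immune, endothelial (122 CPM, from 11 UMIs), Scx-low, mural (26.5 CPM, from 19 UMIs) and Scx-high. Immune and endothelial cells were not apart, endothelial cells were 3.83-fold (1.84 to 7.23) above Scx-low cells, and the last 3 classes were not apart. In the mutant library immune cells were 2.30-fold (1.66 to 3.20) above Scx-high cells, which were not apart from endothelial (63.0 CPM, from 5 UMIs) and mural cells (57.3 CPM, from 15 UMIs). Mural cells gave a ratio of 2.16 (1.02 to 4.49) between the libraries, with 5 of the 15 mutant UMIs in a single cell. Relative to the median gene ratio of mural cells it was 1.995, with an interval that held 1 (0.944 to 4.14). Free RNA could give up to 7.36 and 13.1 CPM there, judged from tendon genes in the same cells. Scx-low cells came last in the mutant library, 3.35-fold (1.81 to 5.82) below mural cells, a value that rests on the same 15 UMIs.

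**Figure D1:**
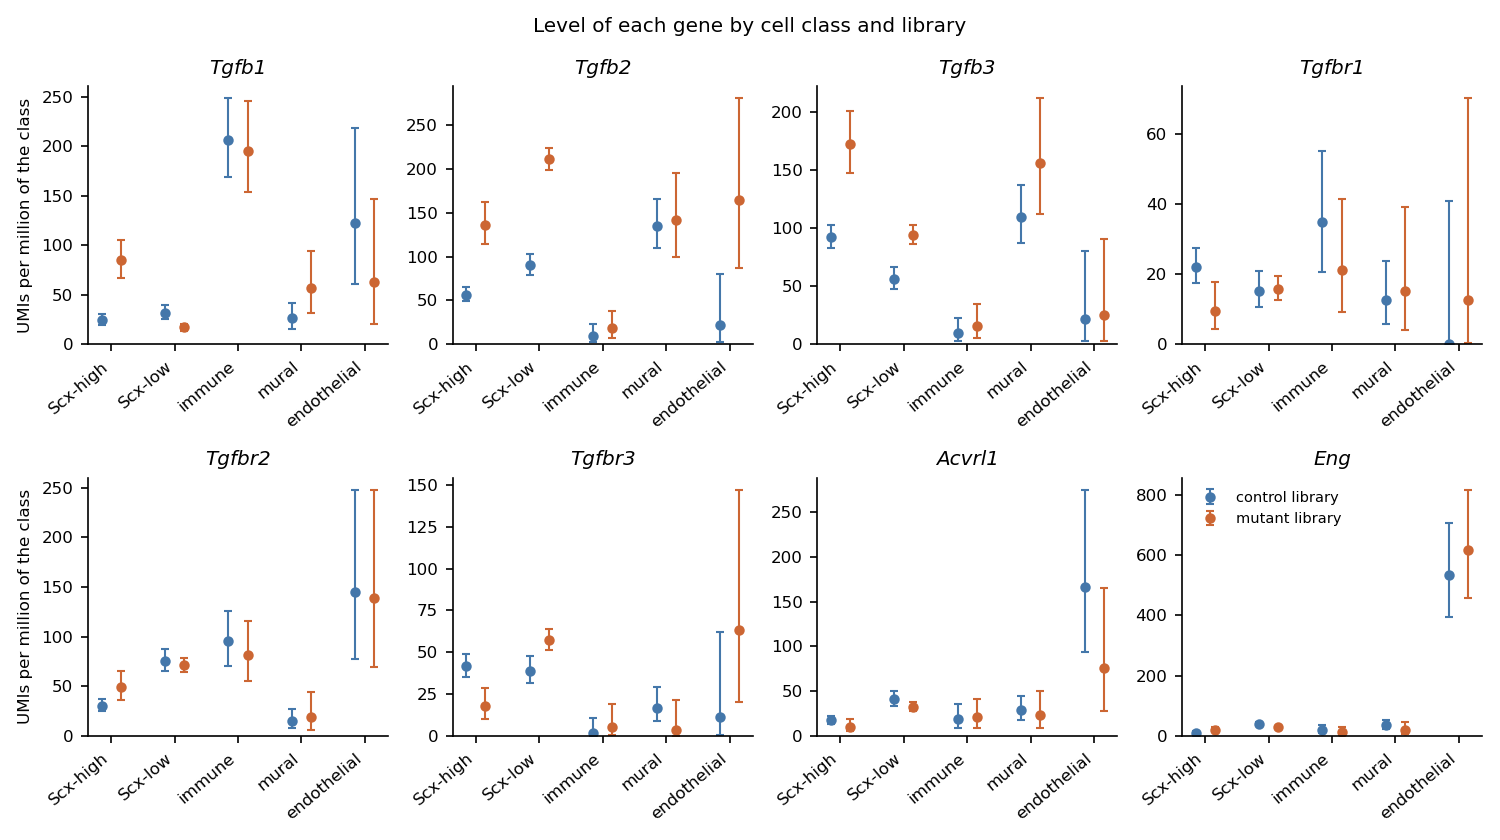
Level of each of the 8 genes in CPM (vertical axis, from 0, a scale of its own in each panel) in 5 cell classes (horizontal axis) of the control and mutant libraries. Points are values of 1 library and bars are exact Poisson 95% intervals. Tgfb1 is highest in immune cells in both libraries, Eng stands at 533 and 617 CPM in endothelial cells, and Tgfb2 reaches 211 CPM in mutant Scx-low cells.

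Tgfb2, a ligand of connective tissue and of the developing limb, was counted most often in Scx-low cells of the mutant library, with 1159 UMIs (211 CPM, 199 to 223). Control Scx-low cells held 221 UMIs (90.5 CPM, 78.9 to 103), a ratio of 2.33 (2.01 to 2.70). In Scx-high cells there were 198 UMIs in the control (56.7 CPM, 49.1 to 65.2) and 130 in the mutant (136 CPM, 114 to 162), a ratio of 2.40 (1.91 to 3.01), or 3.07 when cells were averaged in place of summing their UMIs. After thinning, the share of cells with a Tgfb2 UMI was 6.77% in control and 17.4% in mutant Scx-high cells, and 11.4% and 24.7% in Scx-low cells.

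The intervals of the Tgfb2 ratio lay above 1 in every group into which these cells were split. It lay between 2.01 and 2.44 in the 3 groups by Scx level, at 1.98 (1.52 to 2.62) in Scx-low cells with at least 5 UMIs per 10000 of the tendon gene Tnmd, and at 2.39 (2.01 to 2.85) in those with less. Scx-low cells with and without a UMI of Pi16 gave 2.11 (1.62 to 2.76) and 2.14 (1.79 to 2.58). Scx-low cells were above Scx-high cells by 1.59-fold (1.31 to 1.94) in the control and 1.55-fold (1.29 to 1.87) in the mutant library.

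Mural cells held Tgfb2 at 135 CPM (110 to 165) in the control and 141 (99.5 to 195) in the mutant library. Of these levels free RNA could give up to 12.8 CPM in the control and 64.7 in the mutant. As counted, mural cells were 1.49-fold (1.16 to 1.91) above Scx-low cells in the control library. In the mutant library they were at 0.671 of Scx-low cells (0.470 to 0.930), and mural and Scx-high cells were not apart. The 13 Tgfb2 UMIs of mutant endothelial cells (164 CPM, 87.2 to 280) came from 5 cells, with 7 in a single cell, and the control endothelial cells held 2 UMIs. Immune cells held 9.71 and 18.5 CPM, from 5 and 7 UMIs. Free RNA could give up to 6.56 and 21.8 CPM there, judged from tendon genes in the same cells, and the control interval (3.15 to 22.7) takes in its limit, so the immune values are read as background.

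Tgfb3, the ligand most tied to tendon and palate, had 323 UMIs in control Scx-high cells (92.5 CPM, 82.7 to 103) and 165 in mutant ones (173 CPM, 147 to 201), a ratio of 1.87 (1.54 to 2.26). In Scx-low cells it had 138 (56.5 CPM, 47.5 to 66.7) and 519 UMIs (94.3 CPM, 86.3 to 103), a ratio of 1.67 (1.38 to 2.03). Scx-high cells were above Scx-low cells by 1.64-fold (1.34 to 2.01) in the control and 1.83-fold (1.53 to 2.19) in the mutant library, the reverse of Tgfb2. The 3 groups by Scx level gave ratios from 1.53 to 2.05.

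In Scx-low cells the Tgfb3 ratio was not the same with and without Tnmd, a difference that was not tested. Cells with at least that much Tnmd held 103 CPM in the control (from 55 UMIs) and 102 in the mutant (from 200), a ratio of 0.991 (0.732 to 1.36). Cells with little Tnmd held 43.4 (from 83 UMIs) and 89.8 (from 319), a ratio of 2.07 (1.62 to 2.67). The group with more Tnmd thus stood 2.38-fold (1.66 to 3.38) above the other in the control library, and the interval of that ratio held 1 in the mutant library (1.14, 0.950 to 1.36). Scx-low cells with a Pi16 UMI gave a Tgfb3 ratio between the libraries of 2.26 (1.53 to 3.37) and those without 1.30 (1.04 to 1.63). Mural cells stood at 110 and 157 CPM, not apart from Scx-high cells in either library, while immune and endothelial cells held 2 to 6 UMIs. Of the mural levels free RNA could give up to 14.4 and 37.7 CPM.

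**Figure D2:**
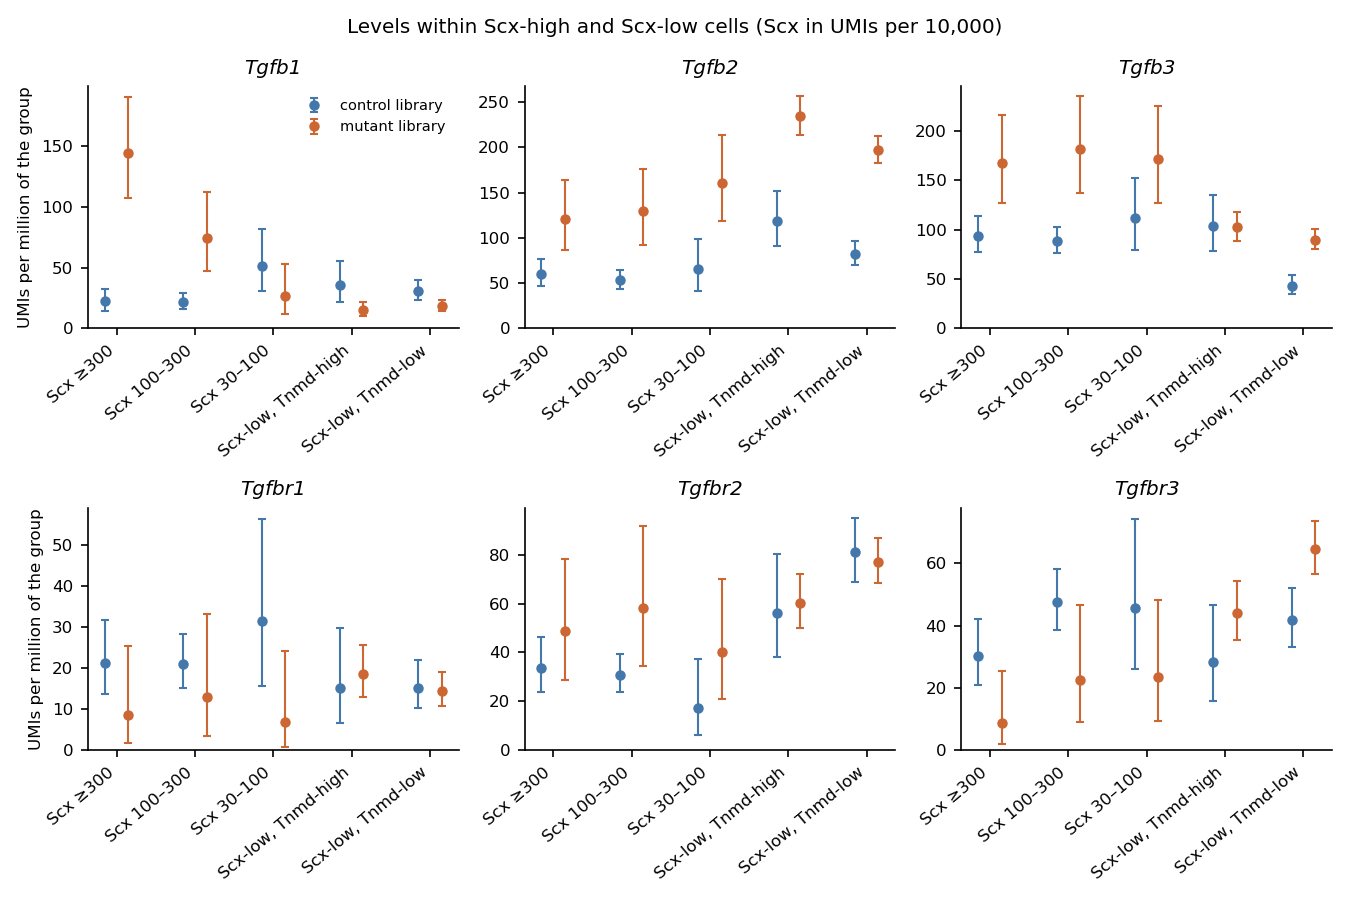
Levels of the ligands, Tgfbr1, Tgfbr2 and Tgfbr3 in CPM (vertical axis, from 0) in Scx-high cells split by Scx UMIs per 10000 and in Scx-low cells split by Tnmd (horizontal axis), for the control and mutant libraries. Points are values of 1 library and bars exact Poisson 95% intervals. Mutant Tgfb1 is at 144 CPM in the cells with most Scx and at 14.8 and 18.3 in Scx-low cells, and the Tgfb3 intervals of the libraries are apart in Scx-low cells with little Tnmd and overlap in those with more.

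Together the ligands gave 174 CPM in control and 394 in mutant Scx-high cells, and 179 and 322 in Scx-low cells. Of these ligand UMIs, Tgfb3 made up 53.1% (49.1 to 57.1) in control Scx-high cells and 43.9% (38.8 to 49.1) in mutant ones. In Scx-low cells Tgfb2 made up 50.6% (45.8 to 55.4) in the control and 65.4% (63.1 to 67.6) in the mutant, and Tgfb1 17.8% (14.4 to 21.8) and 5.30% (4.31 to 6.45). Tgfb1 made up 91.4% (84.7 to 95.8) and 85.1% (75.8 to 91.8) in immune cells. These are shares of UMIs, and since genes are not caught equally they are compared between classes and not between genes.

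**Figure D3:**
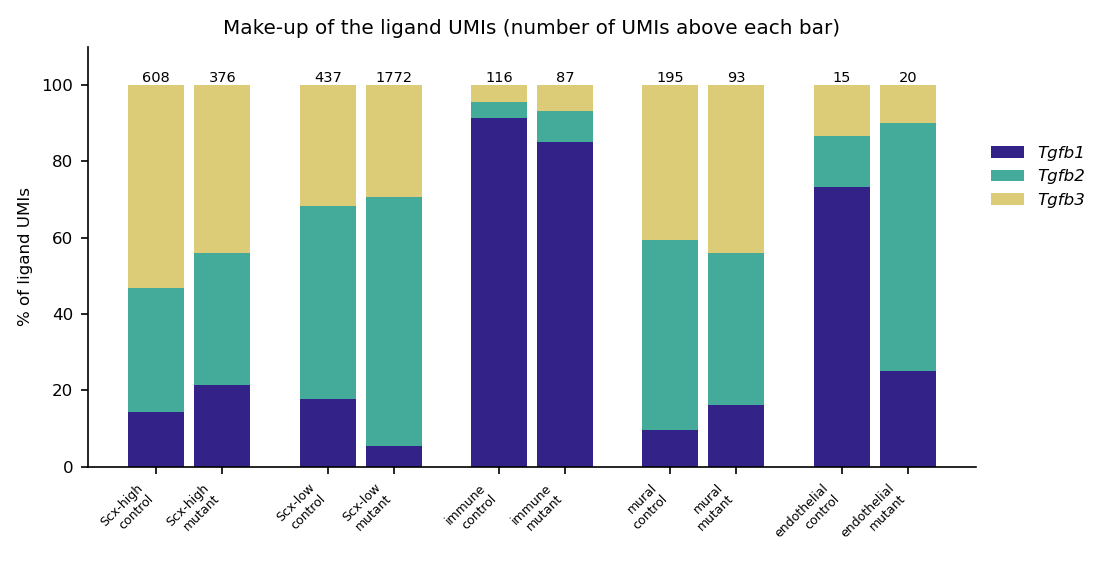
Share of ligand UMIs (vertical axis, %) that came from Tgfb1, Tgfb2 and Tgfb3 in 5 cell classes of the control and mutant libraries (horizontal axis), with the number of ligand UMIs above each bar. Tgfb1 makes up 91.4% and 85.1% in immune cells, and 17.8% and 5.30% in control and mutant Scx-low cells. The endothelial bars rest on 15 and 20 UMIs.

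At least 1 UMI of any ligand was found in 44.1% of control and 75.0% of mutant Scx-high cells, and in 42.1% and 53.1% of Scx-low cells. A ligand UMI and a Tgfbr2 UMI fell in the same cell in 6.49% (4.96 to 8.31) of control and 13.5% (9.13 to 18.9) of mutant Scx-high cells, and in 9.06% and 9.98% of Scx-low cells. Tgfbr1 and Tgfbr2 UMIs met in 0.447% to 1.92% of the cells of these classes. These shares were not thinned, at median depths of 3991.5 and 4331.5 UMIs in Scx-high cells and 3540 and 2858.5 in Scx-low cells.

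Tgfbr2, the type II receptor that was targeted, is counted at its 3′ end, which lies in the last of 8 exons of transcript Tgfbr2-202 (chr9:116084293-116090557, 6265 bases). A transcript of the recombined allele that still holds this exon is counted like an intact one, so these counts do not check the deletion. Loss of the receptor was shown by the study with immunostaining and was not measured here. Tgfbr2 had 106 UMIs in control Scx-high cells (30.4 CPM, 24.9 to 36.7) and 47 in mutant ones (49.2 CPM, 36.2 to 65.4), a ratio of 1.62 (1.12 to 2.31). In Scx-low cells it had 185 (75.7 CPM, 65.2 to 87.5) and 392 UMIs (71.2 CPM, 64.3 to 78.6), a ratio of 0.940 (0.787 to 1.13). Tgfbr2 UMIs were thus not fewer beyond counting error in either class of the mutant library.

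Scx-low cells stood 2.49-fold (1.95 to 3.20) above Scx-high cells in the control and 1.45-fold (1.07 to 2.00) in the mutant library for Tgfbr2. Among Scx-low cells those with a Pi16 UMI were higher than the rest by 1.60-fold (1.18 to 2.17) and 1.48-fold (1.18 to 1.85). Endothelial (144 and 139 CPM, from 13 and 11 UMIs) and immune cells (95.1 and 81.8, from 49 and 31) were not apart from each other or from Scx-low cells in either library. Mural cells were lowest, with 15.3 CPM (7.65 to 27.4) in the control and 19.1 (6.20 to 44.6) in the mutant, or 0.505 (0.245 to 0.940) and 0.388 (0.120 to 0.971) of the Scx-high level. The mutant mural value lies below what free RNA could give there (24.3).

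Tgfbr1, the type I receptor of the pathway, was scarce in all classes. It had 77 UMIs in control Scx-high cells (22.1 CPM, 17.4 to 27.6) and 9 in mutant ones (9.42 CPM, 4.31 to 17.9), a ratio of 0.427 (0.188 to 0.854). With the Scx value lowered to 15 per 10000 the ratio was 0.770, so the size of this difference rested on where the class began. In Scx-low cells it had 37 and 87 UMIs (15.1 and 15.8 CPM), a ratio of 1.04 (0.702 to 1.58). Immune cells held 34.9 and 21.1 CPM (18 and 8 UMIs), mural cells 12.5 and 15.3 (9 and 4 UMIs), and endothelial cells 0 and 1 UMI, where a count of 0 has an exact 95% upper limit of 41.0 CPM. Immune cells stood 2.31-fold (1.24 to 4.16) above Scx-low cells in the control library, and the other pairs of classes compared were not apart in either library.

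Acvrl1 encodes ALK1, a type I receptor of endothelial cells that also binds BMP9, and Eng encodes endoglin, its co-receptor. Of the 5 classes both were highest in endothelial cells. Eng had 48 UMIs in 23 control (533 CPM, 393 to 707) and 49 in 27 mutant endothelial cells (617 CPM, 457 to 816), 13.7-fold (9.49 to 19.6) and 22.1-fold (15.7 to 30.6) above Scx-low cells. These cells made up 0.952% and 0.962% of all UMIs but held 18.7% and 17.9% of the Eng UMIs of their libraries. Acvrl1 had 15 and 6 UMIs there (167 CPM, 93.3 to 275, and 75.6, 27.7 to 165), 4.03-fold (2.18 to 6.97) above Scx-low cells in the control, while in the mutant the interval ran from 0.837 to 5.13.

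In the other classes both genes were low. Cells that passed several gates were left out of the classes and numbered 9 in the mutant library. Those cells held 448 CPM of Eng (29 UMIs) and 92.7 of Acvrl1 (6 UMIs). Acvrl1 stood at 17.8 CPM in control and 10.5 in mutant Scx-high cells (62 and 10 UMIs, ratio 0.589, 0.269 to 1.16) and at 41.3 and 32.7 in Scx-low cells (101 and 180 UMIs, ratio 0.791, 0.616 to 1.02). Its Scx-low level was 2.33-fold (1.68 to 3.25) and 3.12-fold (1.66 to 6.62) above that of Scx-high cells. Eng stood at 10.9 and 19.9 CPM in Scx-high cells (38 and 19 UMIs, ratio 1.83, 0.995 to 3.25) and at 38.9 and 28.0 in Scx-low cells (95 and 154 UMIs, ratio 0.719, 0.553 to 0.939). Scx-low cells with a Pi16 UMI gave an Eng ratio of 1.11 (0.694 to 1.79) and those without 0.575 (0.416 to 0.801). In the Scx-low groups with more and less Tnmd the interval of the Eng ratio held 1 (0.406 to 1.26 and 0.548 to 1.01). The 8 endothelial genes of the gate summed to 12.3 and 34.6 CPM in Scx-high cells, where 2 of the 8 were detected in the mutant. In Scx-low cells they summed to 28.7 and 54.5 CPM. Cells with at least 5 of these UMIs had already been taken out by the gate, and the part of these genes in the Eng ratios was not tested. Immune and mural cells held between 13.2 and 36.2 CPM of either gene.

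Tgfbr3 encodes betaglycan, a co-receptor that presents ligands, TGF-beta2 above all, to the type II receptor. It had 146 UMIs in control Scx-high cells (41.8 CPM, 35.3 to 49.2) and 17 in mutant ones (17.8 CPM, 10.4 to 28.5), a ratio of 0.426 (0.241 to 0.705). In Scx-low cells it had 95 (38.9 CPM, 31.5 to 47.5) and 316 UMIs (57.4 CPM, 51.2 to 64.1), a ratio of 1.48 (1.17 to 1.88). The classes were not apart in the control library (0.930, 0.710 to 1.21), whereas in the mutant library Scx-low cells were 3.22-fold (1.98 to 5.61) above Scx-high cells. The ratio was between 0.287 and 0.512 in the 3 groups by Scx level, with mutant counts of 3 to 7 UMIs each, and between 1.35 and 1.80 in the groups of Scx-low cells. By Scx level the interval held 1 in the groups with 30 to 100 and with 100 to 300 Scx UMIs per 10000. Among Scx-low cells it held 1 in those with a Pi16 UMI and in those with at least 5 Tnmd UMIs per 10000. With the Scx value lowered to 15 per 10000 the Scx-high ratio was 0.551.

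Immune cells held 1 and 2 Tgfbr3 UMIs, below what free RNA could give in each library. Mural cells held 16.7 CPM (12 UMIs) in the control, at 0.400 (0.202 to 0.720) of the Scx-high level, and 1 UMI in the mutant. Endothelial cells held 1 and 5 UMIs.

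**Figure D4:**
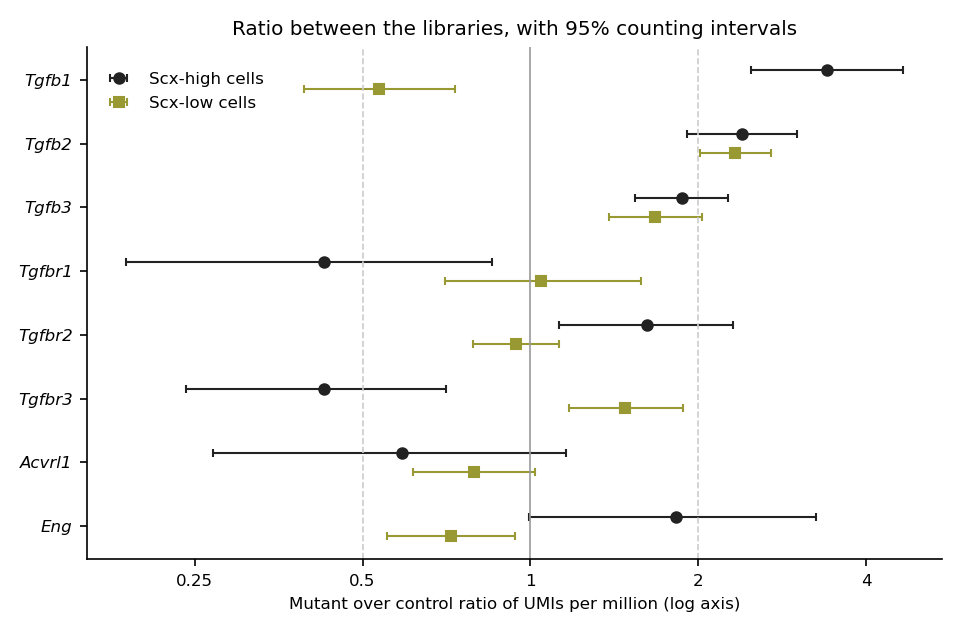
Ratio of mutant over control CPM (horizontal log axis) for the 8 genes (vertical axis) in Scx-high cells (circles) and Scx-low cells (squares), with exact conditional 95% intervals that cover counting error only. The solid line marks a ratio of 1 and the dashed lines ratios of 0.5 and 2. The 2 intervals of Tgfb1 lie on opposite sides of 1, as do those of Tgfbr3 in the reverse order, and those of Tgfb2 and Tgfb3 lie above 1 in both classes.

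In Scx-high cells 2 of the 8 genes were at least 2-fold higher (Tgfb1 and Tgfb2) and 2 at least 2-fold lower (Tgfbr1 and Tgfbr3) in the mutant library. Of 6465 genes with at least 50 UMIs over both libraries, 10.1% were 2-fold higher and 5.54% 2-fold lower, 15.7% in all. The median log2 ratio was 0.78 for the 8 genes and 0.26 for all genes, so ratios in this class ran high in general. Relative to the median gene Tgfb1 stood at 2.84 (2.08 to 3.90), Tgfb2 at 2.01 (1.60 to 2.52) and Tgfb3 at 1.56 (1.29 to 1.89). Tgfbr2 stood at 1.35 with an interval that held 1 (0.940 to 1.93). On that scale Acvrl1 (0.493, 0.225 to 0.968) joined Tgfbr1 (0.357) and Tgfbr3 (0.356) below 0.5, giving 2 genes higher and 3 lower. Of all 6465 genes 5.99% were 2-fold higher and 8.66% 2-fold lower on the same scale.

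In Scx-low cells 1 of the 8 genes, Tgfb2, was 2-fold higher and none 2-fold lower, where 4.31% and 4.27% of 9019 genes were and 8.58% in all. The median log2 ratio was -0.01 for the 8 genes and -0.03 for all genes. Of all genes 97.1% had a lower ratio than Tgfb2 and 5.38% a lower one than Tgfb1. In immune cells no member differed beyond counting error and the 2 that passed the filter, Tgfb1 and Tgfbr2, were within 2-fold, where 6.68% of 2530 genes were not. In mural cells 2 passed, Tgfb2 and Tgfb3, both within 2-fold, where 6.95% of 2951 genes were not, and in endothelial cells 1, Eng, where 9.17% of 578 genes were not.

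The rest of the pathway was described by a list of 46 genes. In Scx-high cells 31 of them passed the same filter, 10 with a ratio of at least 2 and 3 with a ratio of at most 0.5, around a log2 median of 0.72, where 10.1% and 5.54% of all genes were. Relative to the median gene 7 were higher and 3 lower, where 5.99% and 8.66% of all genes were. The genes listed under storage and activation of latent ligand accounted for 7 of those higher among 13 that passed, with none lower. Relative to the median gene 4 of the 13 were 2-fold higher and none lower. Ltbp2 was placed in this list by its family name and not by shown binding of latent ligand. It had 2 UMIs in control and 152 in mutant Scx-high cells, and passed the filter through its mutant UMIs alone. Its place among the genes counted as higher, on both scales, was therefore set by the filter. Thbs1, an activator of latent TGF-beta, was 4.07-fold (3.45 to 4.82) higher, and Fbn1, the fibrillin that anchors the latent complex, 3.13-fold (2.75 to 3.56). Pmepa1, a target gene and feedback inhibitor of the pathway, was 8.70-fold (7.18 to 10.6) higher, from 43.6 to 379 CPM, and Cd109, a co-receptor that restrains signalling, 2.85-fold (2.16 to 3.76).

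At the other end Bambi, a decoy receptor that blocks type I receptors, had 861 UMIs (247 CPM) in control and 64 (67.0) in mutant Scx-high cells, a ratio of 0.272 (0.207 to 0.350). The BMP receptor gene Bmpr1b was at 0.343 (0.121 to 0.787) and the ubiquitin ligase gene Smurf2 at 0.487 (0.170 to 1.15), each with 6 mutant UMIs. Ski, a repressor of Smads, was at 0.695 (0.551 to 0.869), and Ltbp4 at 0.812 (0.646 to 1.01).

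In Scx-low cells 37 of the 46 genes passed, 3 with a ratio of at least 2 and 4 with a ratio of at most 0.5, around a log2 median of -0.16, where 4.31% and 4.27% of all genes were. The largest ratios were those of Ltbp2 (2.29, 1.56 to 3.45), the membrane metalloproteinase gene Mmp14 (2.23, 2.07 to 2.41), the fibrillin gene Fbn2 (2.10, 1.76 to 2.54), Pmepa1 (1.52, 1.27 to 1.83) and the repressor gene Tgif1 (1.47, 1.07 to 2.03). The smallest were those of the integrin gene Itgb3 (0.188, 0.126 to 0.276), Fbn1 (0.387, 0.367 to 0.409), the ubiquitin ligase gene Smurf1 (0.466, 0.295 to 0.737), Cd109 (0.481, 0.388 to 0.598) and Ltbp4 (0.544, 0.489 to 0.606). Of the 30 pathway genes that passed in both classes, 5 had an interval above 1 in Scx-high and under 1 in Scx-low cells, as Tgfb1 did. They were Fbn1, Cd109, Thbs1 (0.735, 0.645 to 0.839, in Scx-low cells) and, named after their values were seen, Itgb1 (1.30 and 0.814) and Fkbp1a (1.79 and 0.808). The share of all genes with this pattern was not computed. The median ratio of all genes was 1.196 in Scx-high and 0.981 in Scx-low cells, so the count is not read as particular to the pathway.

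**Figure D5:**
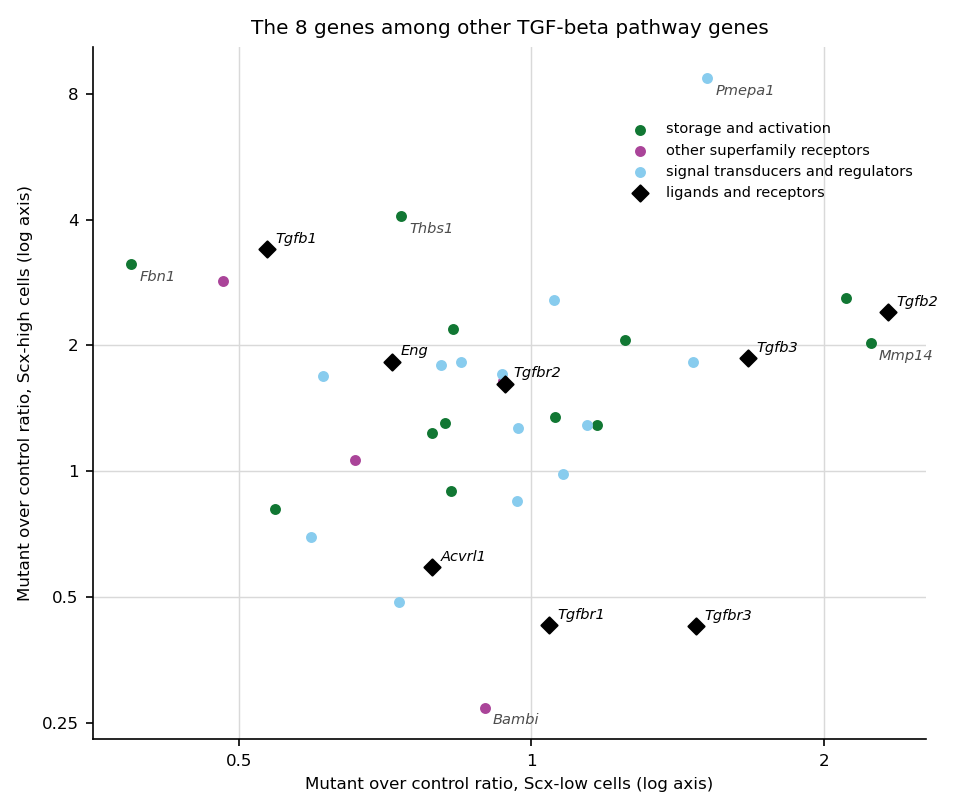
Mutant over control ratio of CPM in Scx-low cells (horizontal log axis) and Scx-high cells (vertical log axis) for the 8 ligand and receptor genes (diamonds) and 29 other pathway genes (dots, coloured by list) with at least 50 UMIs in both classes and over 3 in each library. Lines mark ratios of 0.5, 1 and 2. Tgfb2 lies at 2.33 and 2.40 on these axes, Tgfb1 at 0.535 and 3.40, and Pmepa1 highest at 8.70 in Scx-high cells.

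The genes with the most similar pattern were sought over 10 points, the 5 classes as gated in both libraries, by Pearson's r of log2 of CPM plus 10 among 5762 genes. The points share libraries and depth, and r is a description. The named genes are the highest of those 5762, and the r that such a search alone would give was not computed. Tgfb1 was closest to Anapc15 (0.986), Tmsb4x (0.960) and Actr3 (0.952), Tgfb2 to Lrpap1 (0.979), Scfd1 (0.961) and Yme1l1 (0.948), and Tgfb3 to Lox (0.969), Pkd2 (0.962) and Adam12 (0.950). Tgfbr1 was closest to Gpr107 (0.940), S100a4 (0.901) and Arsb (0.886), Tgfbr2 to Cnih4 (0.968), Tmbim6 (0.956) and Tmed5 (0.955), and Tgfbr3 to Nfia (0.920), Cxxc5 (0.919) and Klhdc2 (0.917). Acvrl1 was closest to Hspa12b (0.992), Prkag1 (0.978) and Stmn2 (0.970), and Eng to the endothelial genes Edn1 (0.991) and Kdr (0.988), with C130074G19Rik (0.989) between them. Kdr was itself a gene of the endothelial gate, so its match with Eng follows in part from the gating. Among the members themselves Acvrl1 and Eng were most alike (0.909), then Tgfb2 and Tgfbr3 (0.842), while Tgfb1 and Tgfbr3 were most unlike (-0.837). With mural cells gated without Ndufa4l2 the r of the 24 named pairs ran from 0.652 (Tgfbr2 with Tmbim6) to 0.987 (Eng with Edn1), and was 0.743 for Tgfbr3 with Klhdc2 and 0.824 for Tgfb3 with Lox.

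By cell class, Tgfb1 UMIs came in similar parts from several sources. In the control library 24.8% lay in Scx-high, 22.2% in Scx-low and 30.2% in immune cells, and in the mutant library 28.2%, 32.8% and 25.8%, although immune cells made up 5.45% and 4.59% of all UMIs. Of the Tgfb2 UMIs of the mutant library 82.0% lay in Scx-low cells, which made up 66.7% of its UMIs, and of the Tgfbr3 UMIs 86.3%. In the control library Scx-high cells, with 36.9% of the UMIs, held 47.2% of the Tgfb3 and 49.7% of the Tgfbr3 UMIs but 24.9% of the Tgfbr2 UMIs. Over all cells the ratio of mutant over control was 2.66 (2.42 to 2.93) for Tgfb2 and 0.937 (0.799 to 1.10) for Tgfb1, the latter with opposite ratios in its classes.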

How the data were processed

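Single-cell 3′ libraries (10x Genomics Chromium) of P7 limb tendon cells were sequenced, 1 per condition. The authors deposited UMI counts per gene and cell, whole numbers without normalization, made by alignment to mm10 and a filter on total UMIs per cell with Cell Ranger, listed as version 1.2.0 in the submitters' processing notes, while the methods name a later version. All 4956 barcodes were used, and doublets were left in.

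From the counts, cells were assigned to classes by marker UMIs, neural, muscle, mixed and unassigned cells (61 control and 178 mutant) were left out, and UMIs were summed per class. Cells passed a marker gate with at least 5 UMIs, and cells that passed several gates were called mixed. Exact 95% intervals were computed with SciPy 1.17.1 in Python 3.11.15, and ratios with their intervals were checked on simulated counts of known ratio. The simulated counts were independent Poisson draws from class sums, without cells, which is what the intervals assume. That check covers the arithmetic and not how the intervals hold where UMIs gather in single cells. Without replicates no test was run. A ratio of at least 2 or at most 0.5 was counted as 2-fold. Free RNA limits were set from Col1a1, Col1a2, Sparc, Fmod and Tnmd. The genes, classes and pathway list were chosen with earlier results of these data known. Named were all 8 genes, the 5 pathway genes with the largest and the 5 with the smallest ratios in Scx-high and Scx-low cells, and the 3 genes most like each member. Alternatives were other gates and Scx values, a cell filter, doublet removal, other denominators, centring and averaging over cells.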

Additional observations from a re-analysis of the deposited data

Results flagged for a closer look

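Tgfb1 and Tgfbr3 drew attention because their ratios between the libraries lay on opposite sides of 1 in Scx-high and Scx-low cells, with intervals that did not reach 1 in either class. How many of all genes do the same was not computed. The median ratio of all genes was 1.196 in Scx-high and 0.981 in Scx-low cells, which leans the way of Tgfb1 and not that of Tgfbr3. Of the 30 pathway genes that passed in both classes, 5 had the order of Tgfb1 and 25 had neither order. Without the share over all genes, neither pattern is read as particular to its gene. The Tgfb1 ratio in Scx-high cells (3.40) was 6.36 times that in Scx-low cells (0.535). The Tgfbr3 ratio in Scx-high cells (0.426) was 0.288 times that in Scx-low cells (1.48). With 1 library per condition the difference between the classes was not tested for either gene, and since Scx separated the classes, a difference in which cells passed the Scx value cannot be told apart from a difference within cells.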

How the results depend on the processing

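No paired analysis was possible because each condition has 1 library. Of 467 ratios of members between the libraries under an alternative, 459 stayed within the 95% interval of the reported ratio, and so did 174 of 176 ratios between Scx-low and Scx-high cells. Part of the 467 could not move, since other Scx values left the immune, mural and endothelial cells unchanged. Others had very wide intervals, such as 0.634 to 268 for Tgfbr3 in endothelial cells. The 459 therefore does not measure how stable the ratios are. Over 12 alternatives the ratio ran from 2.76 to 4.09 for Tgfb1 and from 1.35 to 1.75 for Tgfbr2 in Scx-high cells, and from 0.440 to 0.597, 2.18 to 2.44 and 0.903 to 0.969 for Tgfb1, Tgfb2 and Tgfbr2 in Scx-low cells. Averaging over cells gave 3.07 for Tgfb2 in Scx-high cells, outside its interval.

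The count of members past 2-fold in Scx-high cells, 4 as reported, was 2 with the Scx value at 15 per 10000 and otherwise 3 to 6. In Scx-low cells, 1 as reported, it was 2 with the Scx value at 15 or at 60 and when averaging over cells, where Tgfb1 passed below 0.5 (0.497, 0.493 and 0.440). The pathway count in Scx-high cells, 13 as reported, was 10 to 22 over 3 alternatives, the highest with all genes of at least 1 UMI, and in Scx-low cells, 7 as reported, 7 to 10. Except on the scale of the median gene, the share of all genes past 2-fold was not computed under these alternatives. The counts of members and pathway genes there are therefore not read as results about them. With the mural gate without Ndufa4l2, added after seeing the data, the Tgfbr1 ratio in mural cells was 1.22 (from 13 UMIs) in place of 0.482. The causes were not tested beyond this. All 32 shares of cells with a UMI were lower after thinning, as fewer UMIs per cell must give. Scrublet marked 26 control and 8 mutant cells. Depth is one limit: Tgfbr1, Tgfbr3, Acvrl1 and Eng had 9 to 19 UMIs in mutant Scx-high cells.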
